A study of Mus musculus with 12 samples.

Results

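CT26 tumors from mice given DSP-0509 alone were compared with CT26 tumors from mice given anti-PD-1 antibody alone, which set a Toll-like receptor 7 (TLR7) agonist against a checkpoint antibody in the same tumor model. The tumors were chosen by their treatment labels, and they were 6 of the 12 tumors of the series. CT26 is a mouse colon carcinoma line, and it was grown under the skin of BALB/c mice that were assigned to groups at a tumor volume of 130 to 170 mm3 by the sample labels, while the study's text gives a smaller volume at dosing. The DSP-0509 group (n = 3) received the agonist at 5 mg/kg into a vein, the anti-PD-1 group (n = 3) received 200 µg of antibody per mouse, and a vehicle group (n = 3) was used here as a common baseline. The combination of both agents (n = 3) entered the fit and is otherwise not described. Each tumor came from a separate mouse and was resected 4 days after dosing, and RNA was taken from the whole tumor, so that cancer cells, stroma and infiltrating cells were measured together. A lower value in such bulk RNA can come from fewer cells of a type or from less RNA per cell, and these cannot be told apart here.

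TLR7 is an endosomal receptor for single-stranded RNA that signals through the adaptor MyD88 to interferon regulatory factors and NF-κB, and plasmacytoid dendritic cells are known for type I interferon release after its activation. PD-1 is an inhibitory receptor on activated T cells, and an antibody that blocks it keeps its ligands PD-L1 and PD-L2 from restraining those cells. Both routes are known to end in interferon production in tumors, type I interferon from the innate side and IFNγ from T and NK cells, and IFNγ in turn induces the chemokines Cxcl9, Cxcl10 and Cxcl11, guanylate-binding proteins and Ido1.

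RNA was measured on an nCounter immune panel, in which a barcoded probe for each gene is counted without amplification. The panel held 750 endogenous genes and 20 housekeeping genes, and 646 endogenous genes had a normalized count of at least 20 in at least 3 of the 12 tumors and were tested. Total counts ran from 750407 to 989139 in DSP-0509 tumors and from 845160 to 982137 in anti-PD-1 tumors. The highest negative control probe of a tumor, on the same scale as the genes, reached 15.8 to 22.4 with DSP-0509 and 16.7 to 20.8 with anti-PD-1, so values near 20 lie at the background of the assay. The mean of the negative control probes, on that scale, ran from 8.97 to 10.9 with DSP-0509 and from 11.2 to 12.8 with anti-PD-1. This mean background was lower in every DSP-0509 tumor than in any anti-PD-1 tumor. Its part in the differences of genes with low counts was not tested. The housekeeping genes differed by a median of 0.08 on the log2 scale, and 0 of the 20 were called. Single ones ran from -0.53 for Sap130 to 0.24 for Tubb5. Sap130 had 624, 529 and 368 in DSP-0509 tumors, against 646, 718 and 785 in anti-PD-1 tumors. The leukocyte gene Ptprc, which encodes CD45, was present in every tumor (722, 1169 and 1149 with DSP-0509, against 566, 1076 and 1191 with anti-PD-1). The carcinoma markers Epcam and Cdh1 both passed the filter. Epcam had 21.2, 59.6 and 134 in DSP-0509 tumors, against 32.1, 64.4 and 46.2 in anti-PD-1 tumors. In DSP-0509 tumor 1 the Epcam value was below the highest negative control probe of that tumor (22.4). Of 10 B cell genes only 2 passed the filter, and Ms4a1 and Cd79a were not tested.

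No gene separated the 2 treatments after adjustment over the panel. limma called 0 of 646 genes (0%), with a smallest adjusted p of 0.357, and the methods' t-test also called 0, with 19 genes at unadjusted p under 0.05. Without adjustment 25 genes (3.87%) had p under 0.05, of which 3 (0.464%) were higher and 22 (3.41%) were lower with DSP-0509. The 3 tumors of each treatment did not overlap for 39 genes (6.04%), 10 of them (1.55%) with all DSP-0509 tumors above and 29 (4.49%) with all DSP-0509 tumors below the anti-PD-1 tumors. Both conditions held for 22 genes. Differences are given throughout as DSP-0509 minus anti-PD-1 on the log2(value + 1) scale, which understates the difference of genes with low counts.

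**Figure D1:**
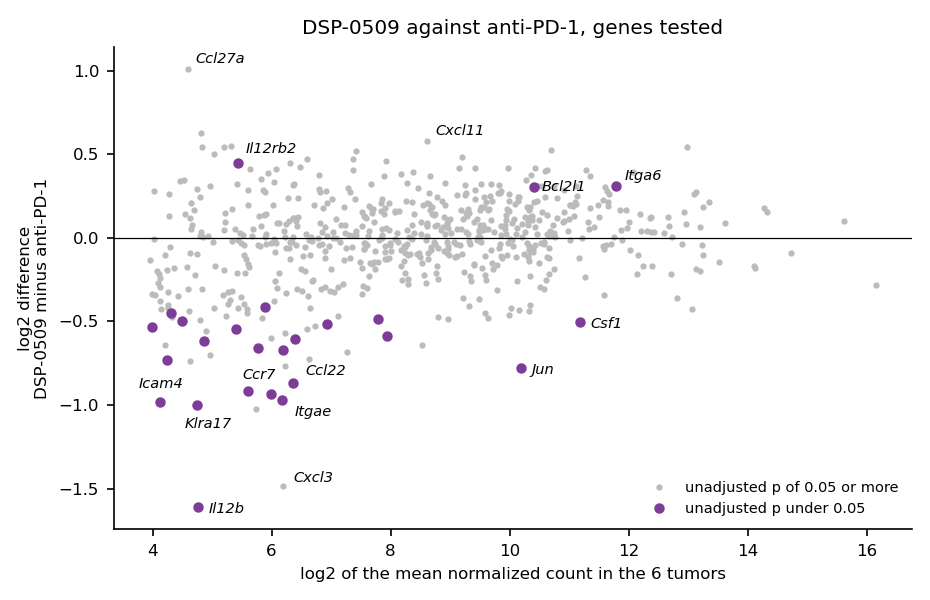
Log2 difference between DSP-0509 and anti-PD-1 tumors (y axis) against the log2 of their mean normalized count (x axis) for the 646 genes tested, 1 point per gene, with the 25 genes of unadjusted p under 0.05 in purple. Of the purple points 22 lie below 0, most of them at the low end of the count range, and 3 lie above 0.

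The size of what could have been missed differed between genes. The median difference of all genes tested was 0.01, with quartiles of -0.15 and 0.16, and 342 genes (52.9%) lay above 0 and 304 (47.1%) below. For 474 genes (73.4%) the 95% interval of the difference lay within 1 log2 unit of 0, so a 2-fold difference in either direction was outside the interval. For the other 172 genes the interval reached past that limit, and for these the data do not show that the treatments acted alike. The widest example was Cfd, adipsin of fat tissue, with 17.9, 756 and 204 in DSP-0509 tumors, against 8.56, 323 and 430 in anti-PD-1 tumors and an interval of -3.96 to 4.72.

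Tumors of one treatment differed from each other about as much as tumors of different treatments. The median absolute log2 difference over the 646 genes ran from 0.256 to 0.371 (median 0.330) for the 3 pairs of DSP-0509 tumors and from 0.132 to 0.478 (median 0.440) for the 3 pairs of anti-PD-1 tumors. For the 9 pairs of 1 tumor of each treatment it ran from 0.163 to 0.475 (median 0.316). Anti-PD-1 tumor 1 stood apart, since it held the lowest of the 6 values for 282 genes, against 64 for anti-PD-1 tumor 2 and 20 for anti-PD-1 tumor 3. List medians with single tumors left out, that tumor among them, are therefore given beside the lists.

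**Figure D2:**
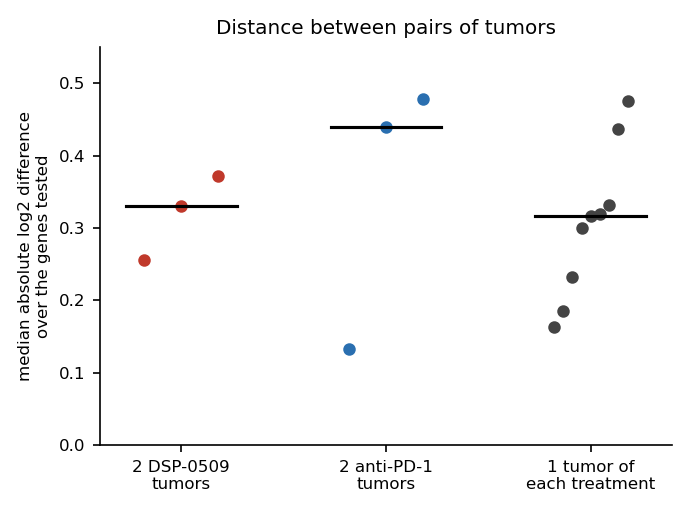
Median absolute log2 difference over the 646 genes (y axis) for each pair of tumors, grouped as 2 DSP-0509 tumors, 2 anti-PD-1 tumors, or 1 tumor of each treatment, with 1 point per pair and a line at the median. The 9 mixed pairs (0.163 to 0.475) lie inside the range of the pairs of anti-PD-1 tumors (0.132 to 0.478).

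The largest negative difference was that of Il12b, which encodes the p40 subunit shared by IL-12 and IL-23. It had 11.2, 13.0 and 13.6 normalized counts in DSP-0509 tumors, against 30.0, 38.6 and 57.0 in anti-PD-1 tumors and 17.7, 13.1 and 40.0 in vehicle tumors. All 3 DSP-0509 values lie within the range of the negative control probes, all 3 anti-PD-1 values lie above it, and vehicle tumor 3 lies inside the anti-PD-1 range. The difference was -1.61 (SE 0.38, interval -2.45 to -0.77, limma adjusted p = 0.357). Il12b kept its sign and an unadjusted p under 0.05 in all 23 alternatives in which it had a value, with differences from -2.99 to -1.17. Its groups did not overlap, so leaving out tumors could not change its sign. Its partner Il12a, the p35 subunit of IL-12, was not tested. The receptor gene Il12rb2, which encodes the signalling chain of the IL-12 receptor on T and NK cells, stood on the other side of 0, with 50.3, 41.9 and 57.0 in DSP-0509 tumors, against 38.5, 27.7 and 43.3 in anti-PD-1 tumors. Those groups overlapped, and the difference was 0.45 (SE 0.18, adjusted p = 0.999).

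Ccr7 and Ccl22 were among the genes with all DSP-0509 tumors below the anti-PD-1 tumors, and they are described because of that. Ccr7, the chemokine receptor that guides dendritic cells and naive T cells to lymph nodes, had 39.1, 43.8 and 47.0 in DSP-0509 tumors, against 76.0, 77.3 and 98.3 in anti-PD-1 tumors. Ccl22, a chemokine of mature dendritic cells that attracts CCR4-bearing T cells, had 53.6, 61.5 and 57.0 in DSP-0509 tumors, against 103, 90.2 and 127 in anti-PD-1 tumors. For both genes the DSP-0509 tumors lay close together and well under every anti-PD-1 tumor. Ccr7 averaged 43.3 ± 3.99 with DSP-0509 and 83.9 ± 12.5 with anti-PD-1 (SD, n = 3 each), and the log2 difference corresponds to a 1.91-fold lower level (-0.93, SE 0.27, adjusted p = 0.704). Ccl22 averaged 57.4 ± 3.94 with DSP-0509 and 107 ± 18.6 with anti-PD-1 (SD, n = 3 each), and the log2 difference corresponds to a 1.83-fold lower level (-0.87, SE 0.27, adjusted p = 0.743). Vehicle tumors did not side with either treatment: Ccr7 had 45.7, 43.9 and 95.5 there, and Ccl22 had 53.0, 61.7 and 108, so vehicle tumors 1 and 2 lay near the DSP-0509 tumors and vehicle tumor 3 near the anti-PD-1 tumors.

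Itgae, which encodes the integrin CD103 of cross-presenting dendritic cells and tissue-resident CD8 T cells, showed the same order. It had 33.5, 61.5 and 52.0 in DSP-0509 tumors, against 73.8, 95.1 and 118 in anti-PD-1 tumors and 48.9, 62.6 and 116 in vehicle tumors (difference -0.97, SE 0.32, adjusted p = 0.999). The groups did not overlap, and again vehicle tumor 3 lay with the anti-PD-1 tumors. Itgax, which encodes CD11c, had 42.5, 51.2 and 33.4 in DSP-0509 tumors, against 55.6, 70.4 and 74.7 in anti-PD-1 tumors (-0.66, SE 0.26, adjusted p = 0.999). Flt3, the growth factor receptor of dendritic cell precursors, had 36.9, 28.9 and 35.9 in DSP-0509 tumors, against 39.6, 51.5 and 59.97 in anti-PD-1 tumors (-0.55, SE 0.20, adjusted p = 0.999). Neither gene overlapped between the treatments, although the gap between the nearest tumors of the 2 groups was small.

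Of the 8 dendritic cell genes listed, 7 were tested and Lamp3 was below the filter. All 7 lay below 0 (47.1% of all genes tested did), with a median of -0.38 against 0.01 for all genes, and 3 of them (Ccr7, Itgax and Flt3) did not overlap, all with DSP-0509 below (4.49% of all genes tested). None of the 7 was called. Xcr1, a receptor of cross-presenting dendritic cells, had 54.8, 61.5 and 49.5 with DSP-0509, against 48.1, 69.4 and 111 with anti-PD-1. Its groups overlapped, since anti-PD-1 tumor 1 was the lowest of the 6. CD209e was near background in both groups, and Flt3l, the ligand of Flt3, differed by -0.04. The mean log2 value over the 7 genes was 5.56, 5.88 and 5.68 in DSP-0509 tumors, against 5.87, 6.26 and 6.33 in anti-PD-1 tumors and 5.44, 5.69 and 5.96 in vehicle tumors, so that DSP-0509 tumor 2 reached the lowest anti-PD-1 tumor. Without anti-PD-1 tumor 1 the median of the list was -0.66, and the largest of its medians with another tumor left out was -0.34. Relative to the same vehicle tumors, the list had a median of -0.14 with DSP-0509 and of 0.52 with anti-PD-1, and 0 of the 646 genes (0%) were called for anti-PD-1 against vehicle.

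**Figure D3:**
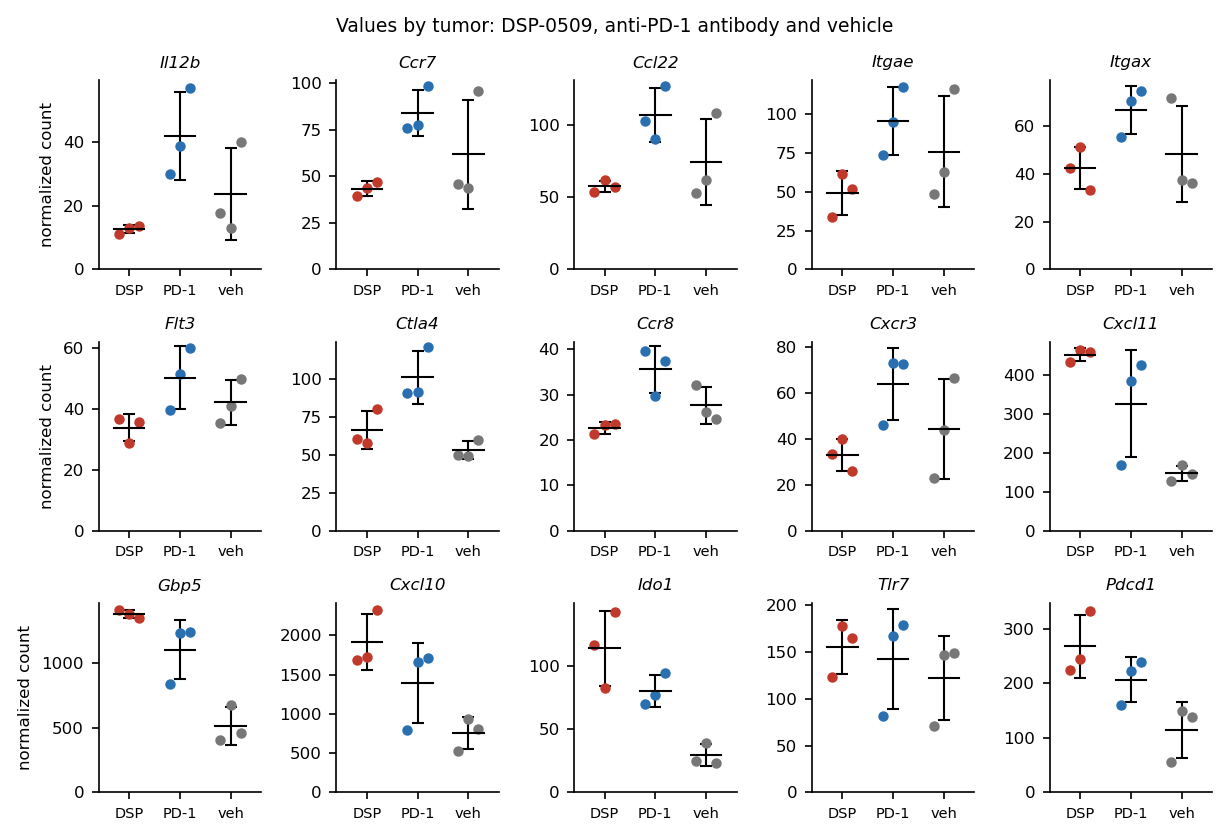
Normalized counts (y axis, from 0) of 15 genes in DSP-0509 (DSP, red), anti-PD-1 (PD-1, blue) and vehicle (veh, grey) tumors, with 1 point per tumor in the order 1 to 3, a line at the mean and bars of 1 SD. Ccr7 and Ccl22 lie lower in every DSP-0509 tumor than in any anti-PD-1 tumor, while Cxcl11 and Gbp5 lie higher, and anti-PD-1 tumor 1 is the lowest anti-PD-1 tumor for Cxcl11, Gbp5 and Cxcl10.

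The chemokine receptors listed serve both lymphocytes and myeloid cells. Of the 17 listed, 13 were tested and 0 were called, and 10 of these lay below 0 (47.1% of all genes tested did). The median was -0.38, which is the value of Xcr1, the middle gene of the dendritic cell list as well. It was -0.20 without DSP-0509 tumor 3, -0.57 without DSP-0509 tumor 1 and -0.61 without anti-PD-1 tumor 1. 4 of them (Ccr7, Ccr8, Cxcr3 and Cxcr4) did not overlap, each with DSP-0509 below (4.49% of all genes tested). Cxcr3, the receptor for Cxcl9, Cxcl10 and Cxcl11 on effector T and NK cells, had 33.5, 40.1 and 26.0 in DSP-0509 tumors, against 46.0, 73.3 and 72.8 in anti-PD-1 tumors (-0.92, SE 0.34, adjusted p = 0.999). Cxcr4, chosen after its values were seen, had 245, 201 and 147 in DSP-0509 tumors, against 356, 260 and 266 in anti-PD-1 tumors. Cxcr6, also a receptor of activated T cells, differed by only 0.06, with an interval of -0.84 to 0.96. Ccr9, a gut-homing receptor, differed by -1.02, but its groups overlapped (17.9, 31.7 and 53.2 with DSP-0509, against 31.0, 94.1 and 91.4 with anti-PD-1).

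Genes of regulatory T cells were mixed. Ccr8, a chemokine receptor that marks regulatory T cells in tumors, had 21.2, 23.3 and 23.5 in DSP-0509 tumors, against 39.6, 29.7 and 37.4 in anti-PD-1 tumors (-0.62, SE 0.16, adjusted p = 0.465). In DSP-0509 tumor 1 this was below the highest negative control probe of that tumor (22.4), and in DSP-0509 tumors 2 and 3 above theirs (15.8 and 19.8). Ctla4, an inhibitory receptor of activated and regulatory T cells, had 60.4, 57.8 and 80.5 in DSP-0509 tumors, against 90.9, 91.2 and 121 in anti-PD-1 tumors and 49.9, 49.5 and 60.02 in vehicle tumors (-0.60, SE 0.24, adjusted p = 0.999). The DSP-0509 tumors thus lay between vehicle and anti-PD-1, with 1 DSP-0509 tumor inside the vehicle range. Foxp3, the factor that defines regulatory T cells, did not separate the treatments, with 11.2, 18.6 and 24.8 with DSP-0509, against 10.7, 29.7 and 34.4 with anti-PD-1 and an interval of -1.35 to 0.65. Of the 7 genes of the list 6 lay below 0 (47.1% of all genes tested did) and 2 did not overlap, both with DSP-0509 below (4.49% of all genes). The median was -0.31, or -0.08 without DSP-0509 tumor 1, -0.54 without anti-PD-1 tumor 1, -0.15 without anti-PD-1 tumor 2 and -0.05 without anti-PD-1 tumor 3.

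T cell genes as a whole differed less. Of 13 tested, 11 lay below 0 (47.1% of all genes tested did) with a median of -0.17. Of these 13 genes 1 did not overlap, with DSP-0509 below (4.49% of all genes tested). The median was -0.34 without anti-PD-1 tumor 1 and 0.07 without anti-PD-1 tumor 3. Cd3e, a chain of the T cell receptor complex, had 134, 116 and 96.6 in DSP-0509 tumors, against 117, 197 and 174 in anti-PD-1 tumors, and the groups overlapped. Cd8a of cytotoxic T cells had 131, 183 and 163 in DSP-0509 tumors, against 126, 172 and 172 in anti-PD-1 tumors. Its difference was 0.02 (interval -0.76 to 0.80), so the means lay at one level and the interval still left room for a moderate difference in either direction. Cd8b1, which encodes the other CD8 chain, differed by -0.32 (-0.37 to -0.27 with single tumors left out). Its groups did not overlap, with DSP-0509 below (4.49% of all genes tested), and it was not called. Cd4 had 24.6, 40.1 and 57.0 with DSP-0509, against 28.9, 76.3 and 62.9 with anti-PD-1 (-0.43, interval -1.31 to 0.46).

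Among the effector genes of cytotoxic cells, no gene was called and the signs were divided. The granzyme gene Gzmb had 453, 271 and 420 in DSP-0509 tumors, against 252, 260 and 347 in anti-PD-1 tumors and 108, 255 and 115 in vehicle tumors (0.39, SE 0.32). Prf1, which encodes perforin, differed by 0.37 (SE 0.24) and Gzmk by 0.55 (SE 0.27), while Ifng differed by -0.30 (SE 0.38) with values near background in both groups. Fasl, the ligand of the death receptor Fas, had 50.3, 45.6 and 42.1 in DSP-0509 tumors, against 38.5, 51.5 and 47.2 in anti-PD-1 tumors, a difference of 0.01. Gzma differed by 0.42 and Ctsw by -0.18. Gzmm, a further granzyme gene, had the lowest difference of the list, -0.42 (-0.49 to -0.36 with single tumors left out). It was the only gene of the list whose groups did not overlap, with DSP-0509 below (4.49% of all genes tested). Of the 8 genes 5 lay above 0 (52.9% of all genes tested did). The median of 0.19 was -0.05 without anti-PD-1 tumor 1, 0.12 without DSP-0509 tumor 1 and 0.12 without DSP-0509 tumor 3. Against vehicle, Prf1 was among the 5 genes (0.774%) called for DSP-0509 (1.28, adjusted p = 0.0445), and its difference for anti-PD-1 was 0.91, which was not called.

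Of 13 IFNγ-induced genes 0 were called and 0 had an unadjusted p under 0.05, and 11 lay above 0 (52.9% of all genes tested did). Cxcl11 had 433, 464 and 459 in DSP-0509 tumors, against 169, 384 and 427 in anti-PD-1 tumors and 129, 168 and 146 in vehicle tumors. Gbp5, a guanylate-binding protein of the response to intracellular pathogens, had 1414, 1384 and 1349.6 in DSP-0509 tumors, against 841, 1234 and 1243 in anti-PD-1 tumors and 403, 680.4 and 463 in vehicle tumors. In both genes the 3 DSP-0509 tumors were nearly equal and above every anti-PD-1 tumor, and both treatments lay above vehicle, apart from Cxcl11 in anti-PD-1 tumor 1, which was at the vehicle level. Cxcl11 differed by 0.58 (SE 0.32, adjusted p = 0.999) and by 0.16 without anti-PD-1 tumor 1. Gbp5 differed by 0.34 (SE 0.23, adjusted p = 0.999) and also by 0.16 without that tumor.

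Cxcl10 followed the same pattern with 1688, 1728 and 2323 in DSP-0509 tumors, against 801, 1661 and 1708 in anti-PD-1 tumors. Its groups overlapped, and the difference of 0.52 (SE 0.32) was 0.17 without anti-PD-1 tumor 1. Ido1, the enzyme that degrades tryptophan, had 116, 82.9 and 142 in DSP-0509 tumors, against 69.5, 77.3 and 94.4 in anti-PD-1 tumors and 24.95, 39.2 and 23.6 in vehicle tumors (0.47, SE 0.29), and it was still 0.38 without that tumor. Of the 13 genes of the list 2 did not overlap, both with DSP-0509 above (1.55% of all genes tested). The median was 0.19, or 0.03 without anti-PD-1 tumor 1, 0.02 with array weights and -0.08 without the 4 tumors numbered 1. It was 0.30 without DSP-0509 tumor 3 and 0.31 without anti-PD-1 tumor 2. Relative to vehicle, the list had a median of 1.15 with DSP-0509 and of 0.90 with anti-PD-1. Gbp5, Gbp2b and Ido1 were called for DSP-0509 against vehicle (adjusted p = 0.0193 for each) and not for anti-PD-1 against vehicle. Their direct comparison, with none called, did not show a difference between the treatments.

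Of 23 type I interferon-stimulated genes tested, 17 lay above 0 (52.9% of all genes tested did). The groups overlapped for each of the 23, and only 6.04% of all genes tested did not overlap. The median was 0.12, or -0.04 without anti-PD-1 tumor 1, -0.01 without DSP-0509 tumor 1 and 0.20 without DSP-0509 tumor 2. DSP-0509 tumor 1 was the highest of the 6 tumors for 17 of the 23 and anti-PD-1 tumor 1 the lowest for 16. Ifit1, an inhibitor of viral translation, had 617, 216 and 136 in DSP-0509 tumors, against 369, 419 and 449 in anti-PD-1 tumors. Irf7, the factor that amplifies type I interferon, had 3055, 1591 and 1618 in DSP-0509 tumors, against 1572, 2049 and 2231 in anti-PD-1 tumors. For Ifit1 the DSP-0509 tumors lay on either side of the anti-PD-1 tumors, and for Irf7 DSP-0509 tumor 1 lay above them and the other two inside their range. The interferon genes Ifna1, Ifna2, Ifna4 and Ifnb1 were below the filter and were not tested.

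The promoters of 4 genes are shown, Gbp5 and Cxcl10 with positive differences and Il12b and Ccl22 with negative differences. None of these genes was called. The set of promoter sequences held no entry for Ccr7, Cxcl11, Itgae and Ido1, so the choice also rested on what was available. Each run covers 250 bases before to 50 bases after the start of the gene in the RefSeq annotation of GRCm38.p6, read 5′ to 3′ on the strand of the gene. That assembly is of C57BL/6J mice, and the hosts here were BALB/c. Capitals mark matches, on either strand, to the interferon-stimulated response element core GAAANNGAAA, the GAS element TTCNNNGAA bound by STAT dimers, or the NF-κB consensus.
Gbp5: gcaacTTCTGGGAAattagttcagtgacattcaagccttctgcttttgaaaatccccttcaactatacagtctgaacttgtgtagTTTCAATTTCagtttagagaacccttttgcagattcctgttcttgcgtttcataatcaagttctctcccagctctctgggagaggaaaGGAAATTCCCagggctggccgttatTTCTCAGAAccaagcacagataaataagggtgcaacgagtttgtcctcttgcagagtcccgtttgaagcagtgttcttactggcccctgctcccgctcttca
Cxcl10: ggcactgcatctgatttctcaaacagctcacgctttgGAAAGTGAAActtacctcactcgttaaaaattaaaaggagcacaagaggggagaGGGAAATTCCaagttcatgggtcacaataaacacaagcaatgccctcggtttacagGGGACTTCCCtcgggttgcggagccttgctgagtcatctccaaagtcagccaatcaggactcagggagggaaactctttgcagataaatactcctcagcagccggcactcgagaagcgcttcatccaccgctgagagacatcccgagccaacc
Il12b: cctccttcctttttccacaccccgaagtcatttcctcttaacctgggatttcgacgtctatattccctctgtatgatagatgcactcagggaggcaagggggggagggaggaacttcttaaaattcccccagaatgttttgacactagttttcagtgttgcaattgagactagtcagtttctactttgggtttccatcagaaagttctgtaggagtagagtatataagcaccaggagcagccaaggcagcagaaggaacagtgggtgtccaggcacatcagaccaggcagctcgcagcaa
Ccl22: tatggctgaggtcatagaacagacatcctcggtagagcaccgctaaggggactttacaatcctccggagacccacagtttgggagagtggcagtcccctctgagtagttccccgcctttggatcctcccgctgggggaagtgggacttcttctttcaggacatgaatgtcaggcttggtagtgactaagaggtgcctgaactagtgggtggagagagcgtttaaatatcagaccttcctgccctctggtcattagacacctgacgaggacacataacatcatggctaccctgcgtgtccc

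These windows lie at chr3:142496684-142496983 (+) for Gbp5, chr5:92348840-92349139 (-) for Cxcl10, chr11:44399813-44400112 (+) for Il12b and chr8:94745434-94745733 (+) for Ccl22. Gbp5 held 1 response element core, 2 GAS elements and 1 NF-κB consensus, and Cxcl10 held 1 response element core and 2 NF-κB consensus matches. No 2 of these matches overlapped. The windows of Il12b and Ccl22 held none of the 3 motifs, which says only that these letters are not in these windows. Among all 32851 promoter windows of the table, 3.44% held the response element core, 8.30% the GAS element and 4.51% the NF-κB consensus. A match is a description of the sequence.

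The drug targets themselves did not separate the groups. Tlr7 had 123, 178 and 165 in DSP-0509 tumors, against 81.3, 167 and 179 in anti-PD-1 tumors and 70.7, 147 and 149 in vehicle tumors (0.19, interval -0.62 to 0.99), and the difference was -0.17 without anti-PD-1 tumor 1. Pdcd1, which encodes PD-1, had 225, 244 and 333 in DSP-0509 tumors, against 159, 222 and 239 in anti-PD-1 tumors and 56.1, 150 and 137 in vehicle tumors (0.37, interval -0.48 to 1.22). Cd274, which encodes the ligand PD-L1, had 1488, 992 and 976 in DSP-0509 tumors, against 1191, 954 and 1128 in anti-PD-1 tumors and 714, 602 and 550.2 in vehicle tumors. Its difference was 0.06 (interval -0.36 to 0.47), and all 6 treated tumors lay above all 3 vehicle tumors. Of 9 Toll-like receptors tested 5 lay above 0, with a median of 0.03 that ran from -0.20 without anti-PD-1 tumor 1 to 0.24 without anti-PD-1 tumor 2. Of 18 genes of Toll-like receptor signalling 10 did (median 0.01, and -0.02 to 0.04 with single tumors left out). Of all genes tested 52.9% lay above 0. In both lists 0 were called and the groups overlapped for every gene, and only 6.04% of all genes tested did not overlap.

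MHC class II genes, which present antigen to CD4 T cells, lay below 0 in 10 of 11 cases (47.1% of all genes tested did) with a median of -0.22. H2-Ab1 had 2094, 3436 and 2514 in DSP-0509 tumors, against 2202, 4032 and 4152 in anti-PD-1 tumors (-0.34, interval -1.19 to 0.51), and its groups overlapped. Only H2-DMb2, a subunit of the chaperone that loads class II molecules, did not overlap (98.4, 126 and 78.0 with DSP-0509, against 134, 157 and 136 with anti-PD-1). It was 1 of the 11 genes, with DSP-0509 below, as were 4.49% of all genes tested. The median of the class II list was -0.40 without DSP-0509 tumor 2, -0.54 without anti-PD-1 tumor 1, -0.06 without anti-PD-1 tumor 2 and -0.05 without anti-PD-1 tumor 3. The genes of MHC class I and peptide loading lay above 0 in 10 of 12 cases (52.9% of all genes tested did) with a median of 0.10, which was 0.0040 without anti-PD-1 tumor 1 and 0.19 without anti-PD-1 tumor 3. Genes of the H2 family are close copies that differ between mouse strains, so single members are uncertain.

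The remaining genes without overlap lay mostly at low counts. Klra17, a member of the Ly49 receptor family, had 19.0, 15.8 and 17.3 in DSP-0509 tumors, against 33.2, 43.6 and 31.5 in anti-PD-1 tumors (-1.0, SE 0.24, limma adjusted p = 0.357). Ly49 genes are near-identical copies whose number differs between strains. Icam4 had 12.3, 8.38 and 13.6 in DSP-0509 tumors, against 22.5, 26.8 and 20.6 in anti-PD-1 tumors (-0.98, SE 0.23, adjusted p = 0.357). For both genes the DSP-0509 values lay within the range of the negative control probes. Cxcl3 and Ccl27a had large differences that rested on uneven tumors. Cxcl3, a chemokine of neutrophils, had 129, 3.73 and 22.3 in DSP-0509 tumors, against 112, 16.8 and 154 in anti-PD-1 tumors (-1.49, interval -4.03 to 1.05), and Ccl27a, the highest difference of all genes (1.01), had 20.1, 20.5 and 54.5, against 8.56, 31.7 and 8.85. Both pairs of groups overlapped, and Ccl27a was chosen after its values were seen. On the higher side, Bcl2l1, which encodes the survival protein BCL-XL, had 1546, 1461 and 1471 in DSP-0509 tumors, against 1384, 1085 and 1176 in anti-PD-1 tumors and 1411, 1289 and 1269.5 in vehicle tumors (0.30, SE 0.13). Itga6, an integrin that binds laminin, had 3524, 3637 and 4646 in DSP-0509 tumors, against 3309, 3122 and 3023 in anti-PD-1 tumors (0.31, SE 0.14). Both were well above background, and they were 1.23-fold and 1.24-fold higher with DSP-0509. Neither was called. Of 24 alternatives, Bcl2l1 had an unadjusted p under 0.05 in 10 and Itga6 in 8.

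**Figure D4:**
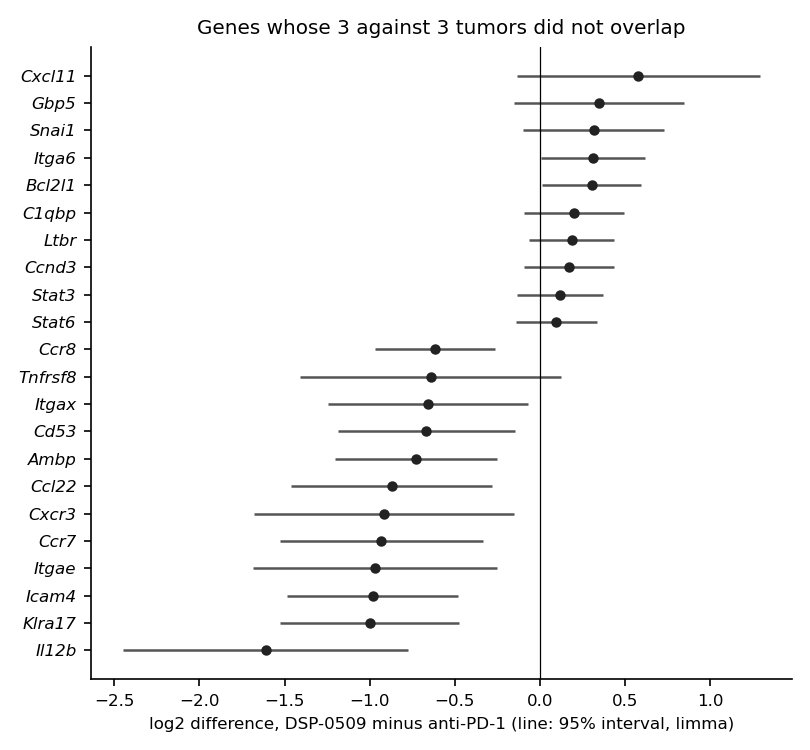
Log2 difference, DSP-0509 minus anti-PD-1 (x axis), with its 95% limma interval, for the 10 genes whose DSP-0509 tumors all lay above and the 12 largest of the 29 genes whose DSP-0509 tumors all lay below the anti-PD-1 tumors. The genes were chosen because their groups did not overlap. Above 0 only the intervals of Bcl2l1 and Itga6 exclude 0, and below 0 only that of Tnfrsf8 includes it.

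Markers of macrophages, endothelium, carcinoma cells and fat held 0 genes whose groups did not overlap (6.04% of all genes tested did not). Of all genes tested, 52.9% lay above 0 and 47.1% below. Macrophage genes lay above 0 in 9 of 12 cases with a median of 0.12, which ran from -0.14 without anti-PD-1 tumor 1 to 0.31 without anti-PD-1 tumor 3. Endothelial genes lay below 0 in 8 of 9 cases with a median of -0.15, which ran from -0.48 without DSP-0509 tumor 2 to 0.05 without DSP-0509 tumor 1 or anti-PD-1 tumor 2. Carcinoma genes lay above 0 in 5 of 6 cases with a median of 0.16, which ran from 0.06 without DSP-0509 tumor 3 to 0.42 without DSP-0509 tumor 1. The mean log2 value of the macrophage genes ran from 9.77 to 10.26 in DSP-0509 tumors and from 9.47 to 10.21 in anti-PD-1 tumors. The tested genes of the fat and skin list, Cfd, Pparg and Cd36, ran from 6.16 to 8.10 with DSP-0509 and from 5.29 to 7.80 with anti-PD-1, a wider spread. Spink5, the skin gene of that list, was below the filter and was not tested. All 8 genes of cell cycle and growth lay above 0 (median 0.19, and 0.13 to 0.24 with single tumors left out), with Birc5, the mitotic survival gene, at 629, 894 and 1265 in DSP-0509 tumors, against 576, 758 and 839 in anti-PD-1 tumors. Of these 8 genes 1 did not overlap, with DSP-0509 above (1.55% of all genes tested). The part of these cell types in the differences above was not tested.

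**Figure D5:**
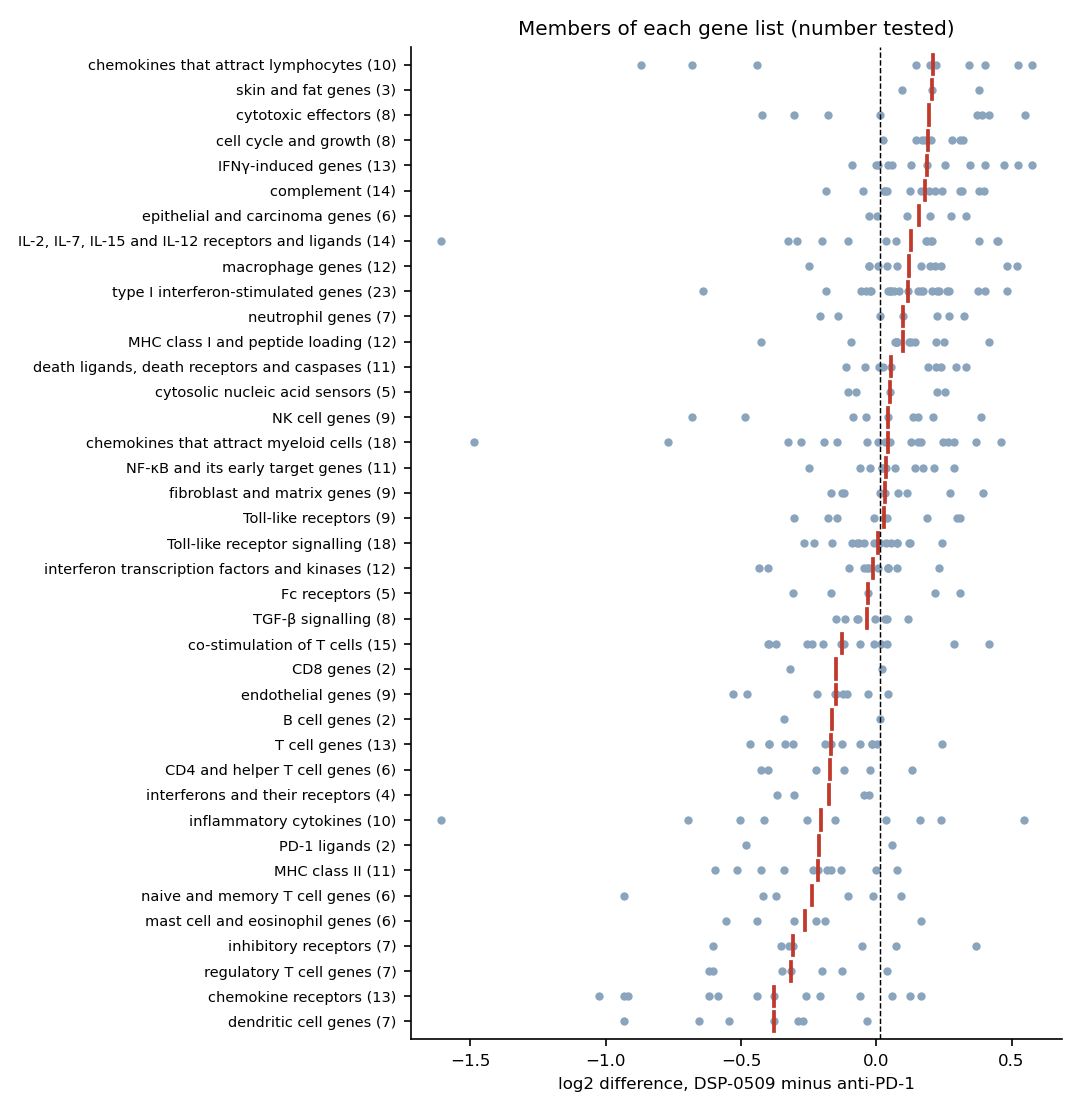
Log2 difference, DSP-0509 minus anti-PD-1 (x axis), of each tested member of 39 gene lists (points), with the median of each list (red bar) and the median of all 646 genes (dashed line). Dendritic cell genes and chemokine receptors have the lowest medians (-0.38 each, the value of Xcr1, which both lists hold). The list with the highest median, chemokines that attract lymphocytes (0.21), was at -0.03 without DSP-0509 tumor 3 and -0.12 without anti-PD-1 tumor 1, and at up to 0.46 with another tumor left out.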

How the data were processed

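RNA of whole CT26 tumors was hybridised to the nCounter PanCancer Mouse Immune Profiling panel (770 genes, 14 control probes). The deposited values are a signal: the authors counted barcoded molecules and, with nSolver software, multiplied the counts of each tumor by 1 factor, with no background subtracted. How the factor was chosen is not given in the sources used here. Values were whole multiples of 1 step per tumor (within 0.1), which gave the total counts, and no count model was run. The 646 endogenous genes that reached 20 in 3 or more tumors were taken to log2(value + 1) and fitted in limma 3.58.1 (R 4.3.3; lmFit, then eBayes) on the 12 tumors in 4 groups, with Benjamini-Hochberg adjustment over those genes and a threshold of 0.05, and the script was tested on simulated data. Of the 770 symbols, 754 were current and 8 were older symbols in the RefSeq table of GRCm38.p6, which was used for names and promoter sequences.

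Named genes were those without overlap with the 12 largest differences on either side, the drug targets, genes named by the study and the ends of each of 39 gene lists. Ccl27a, Cxcr4, Gbp2b, Irf7, Prf1, Ptprc and Xcr1 fall outside that rule and were chosen after their values were seen. Genes and lists were chosen with earlier results of these data known. Alternatives were no filter, a filter of 50, a pseudocount of 10, rescaling to the housekeeping genes, quantile normalization, centring, background subtraction, the 6 tumors alone, array weights, the methods' unpaired two-sided t-test, the replicate number as a block and each tumor left out. Leaving out the 4 tumors numbered 1 was chosen after seeing the data. Python 3.11.15 and matplotlib 3.10.9 drew the figures. Other assays of the study were not analysed here. Some genes are not reported here.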

Additional observations from a re-analysis of the deposited data

How the results depend on the processing

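With 3 tumors per treatment, a median 95% interval of 0.57 log2 units on either side of a difference limited what could be seen, and low counts lay near background. Of 24 alternatives, limma array weights alone gave a call, for 1 gene (Icam4, adjusted p = 0.0441), and the others gave 0. The number of genes at unadjusted p under 0.05, 25 as reported, was 15 with the 6 tumors alone, 85 with array weights, 13 to 55 with single tumors left out, and 76 without the 4 tumors numbered 1, a setting chosen after seeing the data. The extremes came without anti-PD-1 tumor 3 (13) and without DSP-0509 tumor 1 (55). The share of these genes that were lower with DSP-0509, 88%, was 61.5% with quantile normalization, 56.5% with centring and 76% with background subtraction, and the cause was not tested. Tumors of both groups are numbered 1 to 3, and the deviations of same-numbered tumors correlated at 0.65, 0.55 and 0.09. Those of differently numbered tumors ran from -0.66 to 0.30. The number was not taken as a pairing because the value for the tumors numbered 3 was under a minimum of 0.1. That does not show that same-numbered tumors were unrelated. With the replicate block limma called 0 genes (smallest adjusted p 0.133), and 47 had an unadjusted p under 0.05. With single tumors left out, Fcgr3 ranged from -0.515 to 0.0434 and Stat2 from -0.803 to 0.0157, each above 0 without DSP-0509 replicate 3, and Tnfsf14 from -0.0197 to 0.470, below 0 without anti-PD-1 replicate 2. These were the sign changes of differences larger than their standard error, and in all 99 of 216 named genes changed sign under at least 1 alternative. The other 117 did not, among them Il12b, Ccr7, Ccl22, Itgae, Itgax, Flt3, Cxcl11 and Gbp5. Flt3 was chosen as an end of a gene list, and the others because their groups did not overlap. The groups of Flt3 did not overlap either, so leaving out tumors could not change the sign of any of these genes. Of 39 list medians 14 never changed sign.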
